A study of Homo sapiens with 52 samples.

Results

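Ribosome load, the amount of ribosome footprint carried per unit of mRNA, was measured for single transcripts in HEK293T cells that had lost no gene. HEK293T is a transformed line from human embryonic kidney. Load is the log2 ratio of CPM in Ribo-seq (a transcript's count scaled to a fixed library total), which sequences the mRNA fragments that ribosomes protect from RNase I, to CPM in RNA-seq of the same cells. Transcripts were kept when their mean count over 4 RNA-seq libraries was 50 or more, which left 101352 of the 226882 transcripts in the deposited table (169786 had any RNA-seq count in these libraries). Ribo-seq counts played no part in that choice. Below the limit, 4597 transcripts with a mean count of 40 to under 50 had a median load of -0.69, and 4157 transcripts at 50 to under 60 had -0.71.

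The cells were of 2 kinds. WT cells carried no change or treatment that the labels name, and siControl cells had received a control siRNA, of unstated dose and time. Each kind gave 2 Ribo-seq and 2 RNA-seq libraries, 8 in all. The study as a whole removed 3 related translation factors, eIF2D, MCTS1 and DENR, from the same line. Libraries from 2 MCTS1 KO lines (#1 and #2), from cells with 2 different siRNAs against DENR (siDENR #1 and #2), and 4 TCP-seq libraries of WT cells served here as readings that took no part in setting the load. Whether the replicates of a group were grown separately is not stated in the labels, and the p-values rest on differences among these libraries alone, which could be technical.

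A ribosome forms on an mRNA in steps. The small (40S) subunit binds near the 5′ end with initiation factors and scans to a start codon, where the large subunit joins and elongation begins. Ribo-seq in the presence of cycloheximide, which stalls elongating ribosomes, counts mostly these complete ribosomes, and TCP-seq, translation complex profiling, is designed to capture scanning small subunits as well. mRNAs differ in how often initiation succeeds, and RNAs that stay in the nucleus or hold no open reading frame carry few footprints while still being counted in RNA-seq.

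Library totals ran from 25785993 to 53386368 counts for Ribo-seq and from 76967099 to 104084653 for RNA-seq. The transcripts kept held 93.2% to 93.8% of Ribo-seq counts and up to 99.1% of RNA-seq counts. The variance within replicate pairs was 1.93 to 5.13 times that of counting noise, highest in the WT Ribo-seq pair. No replicate pair was close enough to be repeat deposits of 1 library. The deposited files list transcript identifiers and pair none of them with a gene. Gene names, gene groups, positions, sequences and the marker genes of HEK293T were therefore not analysed here.

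Among the transcripts kept, load spread unevenly around its centre, with a long tail of transcripts of low load. The median fitted load was -0.45, the quartiles were -1.22 and 0.17, and the 5th and 95th percentiles were -2.87 and 0.89, a 13.5-fold range. The 1st percentile reached down to -5.71 whereas the 99th was only at 1.56. At or under -4, that is 16-fold fewer Ribo-seq than RNA-seq CPM, there were 2352 transcripts, against 139 at or over 4. The minimum was set on RNA-seq counts, by which load divides, so transcripts with many footprints and few RNA-seq counts were left out. With no minimum the median load was -0.17. How far the minimum shaped the 2 tails was not tested. The median standard error of a transcript's log2 load was 0.13.

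**Figure D1:**
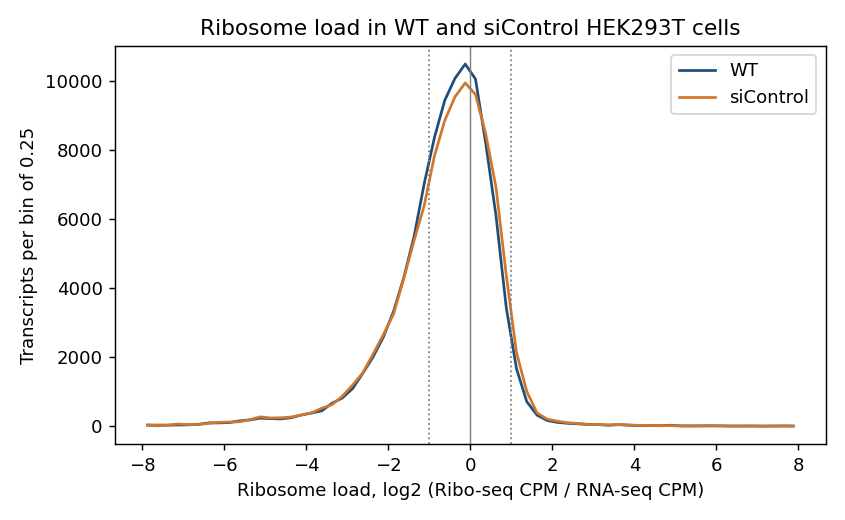
Number of transcripts (vertical axis) per bin of 0.25 in log2 ribosome load (horizontal axis) for WT and siControl cells, with 101352 transcripts in each curve. The dotted lines mark 2-fold differences between Ribo-seq and RNA-seq. Both curves peak just below 0 and run out farther to the left, with WT quartiles of -1.23 and 0.14 and siControl quartiles of -1.23 and 0.22.

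A transcript was called when edgeR's quasi-likelihood test gave a Benjamini-Hochberg adjusted p under 0.05 and the difference was at least 2-fold. On this rule 3662 transcripts (3.61%) had a higher load and 31292 (30.9%) a lower one. These counts describe all transcripts tested and depend on the RNA-seq minimum and on where 0 is placed. With no minimum there were 22174 higher and 44796 lower calls. With TMM factors, which align the bulk of transcripts between assays, the median load moved from -0.45 to -0.06 and the split became 10571 higher and 21377 lower. With DESeq2 size factors the median was -0.03 and the split 11472 to 20842. Such factors shift the loads of all transcripts together, and all values below use plain CPM. Of the 3662 transcripts called higher, 3660 had a load above 0 in each kind of cell taken alone, and all 31292 called lower had one below 0 in each, with no condition on size. Both kinds of cell entered the fit that made the calls, so these signs are no independent reading. WT libraries alone gave 3417 higher and 31686 lower calls, and siControl libraries alone 4465 and 31688. Many transcripts share reads: the 101352 tested had 99173 distinct sets of counts, and 3590 and 30524 distinct sets stood among the higher and lower calls.

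The called transcripts took very unequal parts of the 2 assays. The higher set made up 3.97% ± 0.09 (SD, n = 4 libraries) of RNA-seq counts and 13.3% ± 0.53 of Ribo-seq counts. For the lower set the shares were 26.5% ± 0.33 of RNA-seq and 8.29% ± 0.31 of Ribo-seq counts. These shares are of the counts on the transcripts kept, not of whole libraries. They describe sets that the load itself selected and carry no test.

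The split was similar among transcripts of higher RNA-seq CPM. Among the 39855 transcripts with a mean of 5 CPM or more in RNA-seq, 1325 (3.32%) had a higher and 10587 (26.6%) a lower load. The far ends thinned out at that level, with 529 of the 2352 transcripts at or under -4 and 11 of the 139 at or over 4 reaching 5 CPM. The median RNA-seq level was 1.83 CPM in the low group and 1.18 CPM in the high group.

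Among transcripts of at least 5 CPM, ENST00000505987.1 had the highest load. Its Ribo-seq level was 325 and 278 CPM in the WT libraries and 262 and 273 CPM in the siControl libraries. Its RNA-seq level was 6.35 and 6.57 CPM in WT and 5.08 and 6.33 CPM in siControl cells. Every Ribo-seq library thus lay far above every RNA-seq library, and the ratio of the means was 46.7. The fitted log2 load was 5.54 ± 0.08 (SE), with an adjusted p of 1.2e-24 in edgeR's quasi-likelihood test.

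The next highest was ENST00000422633.1, with 204 and 196 CPM in WT Ribo-seq and 221 and 225 CPM in siControl Ribo-seq. In RNA-seq it stood at 4.41 and 4.74 CPM in WT and at 6.33 and 5.34 CPM in siControl cells. Its 4 Ribo-seq values lay closer together than its RNA-seq values. The log2 load was 5.35 ± 0.07 (SE), with an adjusted p of 7.6e-25 in the same edgeR test. Both transcripts were also well covered in WT TCP-seq, at 28.8 ± 7.33 CPM and 15.5 ± 3.46 CPM (SD, n = 4), which is above their RNA-seq level and far below their Ribo-seq level.

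At the other end, 18 transcripts of at least 5 CPM had no Ribo-seq count in any of the 4 libraries. Their order by load rests on their RNA-seq levels. Lowest was ENST00000636449.1, whose mean RNA-seq count of 4164.75 was the highest among transcripts with no Ribo-seq count. Its RNA-seq level was 55.5 and 54.4 CPM in WT and 44.6 and 38.9 CPM in siControl cells. Set against the floor of 3 counts over the 4 Ribo-seq libraries, which is 0.0212 CPM, its Ribo-seq level was at least 2255-fold lower than its RNA-seq level. The floor covers counting error only. TCP-seq of WT cells did detect it, with 92, 57, 85 and 50 counts or 30.1 ± 3.43 CPM (SD, n = 4). In CPM its TCP-seq level was thus close to that of the transcript of highest load, although Ribo-seq separated the pair completely. Their mean RNA-seq levels differed, at 48.3 CPM for ENST00000636449.1 and 6.08 CPM for ENST00000505987.1. Per RNA-seq, TCP-seq was therefore also lower for ENST00000636449.1.

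ENST00000449573.5 had no Ribo-seq count either, at RNA-seq levels of 41.2 and 41.2 CPM in WT and 48.0 and 42.6 CPM in siControl cells. On the same floor its Ribo-seq level was at least 2034-fold lower. Unlike the previous transcript it had no count in the 4 TCP-seq libraries, where the floor of 3 counts over the 4 libraries is 0.320 CPM, and was at least 135-fold lower there than its siControl and WT RNA-seq level. In the other 8 Ribo-seq libraries of the study the 2 transcripts had 6 and 5 counts in all. Of these, 5 and 5 came from the second MCTS1 KO #1 library. In those cells their mean RNA-seq level was 28.4 to 54.3 CPM.

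**Figure D2:**
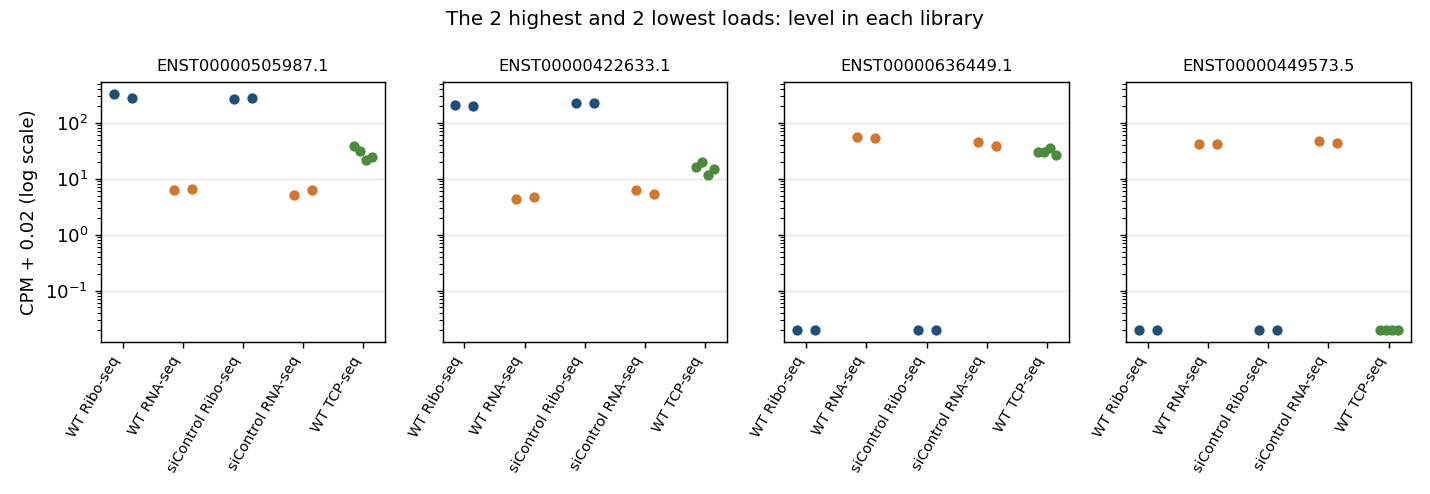
CPM + 0.02 on a log scale (vertical axis) of the 2 transcripts of highest and the 2 of lowest load in each WT and siControl library of Ribo-seq and RNA-seq and in each WT TCP-seq library, 1 point per library. Ribo-seq points of ENST00000505987.1 and ENST00000422633.1 lie between 196 and 325 CPM, whereas those of ENST00000636449.1 and ENST00000449573.5 are at 0 and are drawn at 0.02. The TCP-seq points of ENST00000636449.1 lie at 26.3 to 34.6 CPM. Among transcripts with no Ribo-seq count, the order by load rests on RNA-seq level.

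Transcripts with no footprint at all were rare. No count in the 4 Ribo-seq libraries, which hold 141487710 counts together, was found for 379 transcripts (0.374%). Most were low in RNA-seq, with a median mean count of 89.5, and 18 of them reached 5 CPM. In the other 8 Ribo-seq libraries, with 489414741 counts together, 266 of the 379 had a count, with a median sum of 2 and a highest sum of 38 over the 8 libraries. Most of these transcripts were thus detected in the larger set of libraries, at very low counts. The MCTS1 KO #1 libraries were by far the deepest of that set, and detection was not counted per library. In WT TCP-seq 204 had a count and 67 had 10 or more over the 4 libraries.

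Loads were close in both kinds of cell. Across 101352 transcripts the loads of WT and siControl cells had a Spearman's rho of 0.93, and the median absolute difference was 0.23 on the log2 scale. Their loads lay within 2-fold of each other for 96.2% of transcripts. Single pairs of a Ribo-seq and an RNA-seq library had a rho of 0.91 between WT replicates and 0.91 between siControl replicates, and of 0.87 to 0.90 between a WT and a siControl pair. These correlations run across transcripts, which share libraries and reads and are no replicates. The median over transcripts of the SD of the 4 single loads was 0.26.

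Load set in WT cells was then read in libraries that had not been used to set it. Of 3448 transcripts at least 2-fold higher in WT, 78.2% were so in siControl cells, where 4.34% of all transcripts were. In the knockout and siRNA cells the same share was 61.9% in MCTS1 KO #1, 80.7% in MCTS1 KO #2, 79.1% in siDENR #1 and 77.1% in siDENR #2. Of 588 transcripts at least 4-fold higher, 90.6% were so in siControl cells and 78.7% to 89.1% in the other 4 states, the lowest again in MCTS1 KO #1. In MCTS1 KO #1 2.65% of all transcripts were at least 2-fold higher, against 3.77% to 6.08% in the other 3 states. Whether that line differs at the high end was not tested.

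The low end was read in the same way. Of 11597 transcripts at least 4-fold lower in WT, 81.2% were so in siControl cells and 77.7% to 80.4% in the KO and siDENR states, where 10.4% to 12.1% of all transcripts were. Of 2106 transcripts at least 16-fold lower, 77.9% to 81.8% were so in the other 5 states, where 2.09% to 2.42% of all were. No transcript of that group had a load above 0 in any of the 5.

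Grouped by load in WT into 7 classes, transcripts kept the order of classes in each of the other 5 states. The class under -4 had a median load of -5.06 in WT and of -5.13 to -5.04 elsewhere. The class from -1 to 0, the most populated with 38380 transcripts, had -0.47 in WT and -0.46 to -0.37 elsewhere. The class of 2 or more had 2.94 in WT and 2.79 to 2.97 elsewhere. Within a class, single transcripts spread far more than the class medians moved: in siControl cells the SD over transcripts was 1.40 in the lowest class and 0.40 in the class from 0 to 1.

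**Figure D3:**
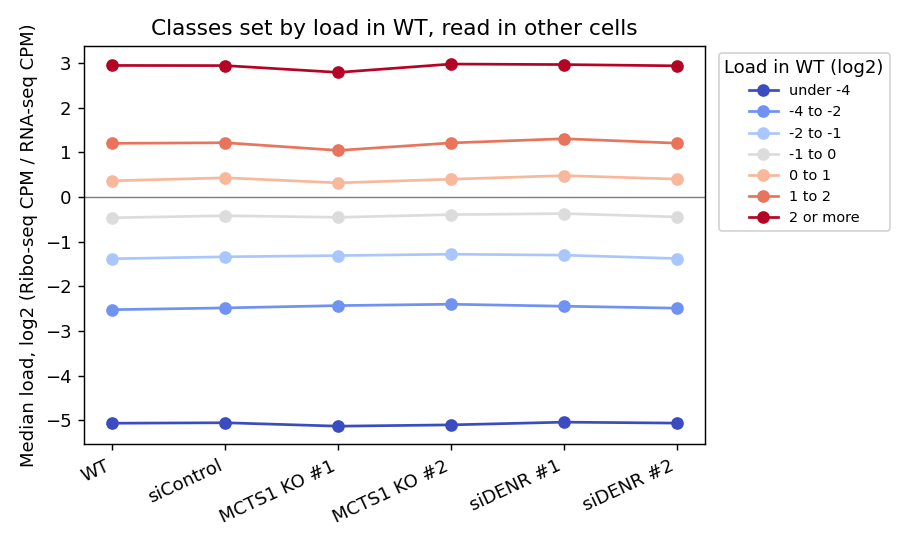
Median log2 load (vertical axis) of the 7 classes of transcripts set by load in WT, in WT, siControl, MCTS1 KO and siDENR cells (horizontal axis). The lines lie almost flat: the class under -4 stays between -5.13 and -5.04 and the class of 2 or more between 2.79 and 2.97 outside WT.

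The rank correlation with WT load was 0.94 and 0.95 in the 2 MCTS1 KO lines and 0.90 and 0.91 with the 2 DENR siRNAs. Against siControl cells the siDENR states had 0.93 and 0.93. With siControl load the MCTS1 KO lines had 0.91 and 0.91. The KO lines were thus nearer to WT cells and the siDENR cells nearer to siControl cells. The width of the load distribution was read per Ribo-seq library as the difference in median load between the highest and lowest quintiles of transcripts. The quintiles came from siControl load for WT and MCTS1 KO cells and from WT load for siControl and siDENR cells. It was 2.80 and 2.58 in the WT libraries, 2.56 ± 0.01 in MCTS1 KO #1 and 2.61 ± 0.01 in MCTS1 KO #2 (SD, n = 2 each). In siControl cells it was 2.82 ± 0.03, in siDENR #1 2.88 ± 0.03 and in siDENR #2 2.84 ± 0.02. With 2 libraries a state no exact permutation test of a pair of states can reach 0.05.

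TCP-seq per transcript was read in the same classes. It was set against siControl RNA-seq, as was siControl Ribo-seq, so that neither reading shared a library with the WT load that set the classes. Over transcripts of 5 CPM or more in siControl RNA-seq, the median log2 TCP-seq per RNA-seq was -0.89 ± 0.25 in the class under -4 (503 transcripts; SD, n = 4 libraries). It was -0.71 ± 0.10, -0.60 ± 0.07, -0.58 ± 0.06 and -0.51 ± 0.07 in the next 4 classes, -0.21 ± 0.05 in the class from 1 to 2 (1115 transcripts) and 0.55 ± 0.17 in the class of 2 or more (113 transcripts). In siControl Ribo-seq the same medians went from -4.60 ± 0.04 to 2.59 ± 0.003 (SD, n = 2). For both readings 0.2 CPM was added to each level, which limits how low the Ribo-seq median of the lowest class can go. From the class under -4 to the class from 1 to 2, TCP-seq medians differed by 0.69 ± 0.29 and Ribo-seq medians by 5.80 ± 0.02. With TMM factors the TCP-seq difference was 0.41.

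**Figure D4:**
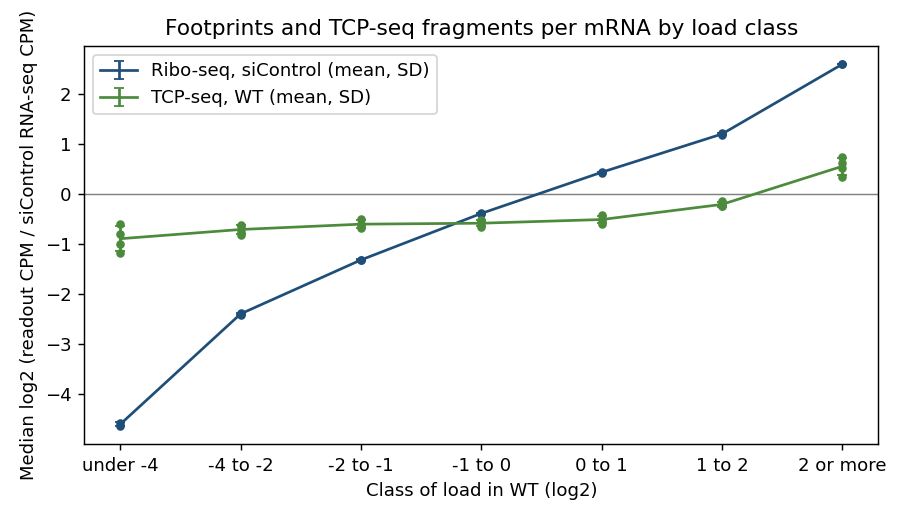
Median log2 ratio of Ribo-seq or TCP-seq CPM to siControl RNA-seq CPM (vertical axis) for transcripts of 5 CPM or more in the 7 classes of WT load (horizontal axis), with points for libraries and bars for the mean and SD. The Ribo-seq line climbs from -4.60 to 2.59, and the TCP-seq line from -0.89 to 0.55, with its 4 libraries in the class under -4 between -1.19 and -0.60. Before each ratio 0.2 CPM was added to both levels.

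At both ends these values depended on how the transcripts of a class were combined. When TCP-seq counts were added up over all transcripts of a class before the ratio was taken, the class under -4 stood at 0.10 ± 0.10 and the class from -2 to -1 at -0.43 ± 0.06 (SD, n = 4), which is the opposite order to that of the medians. In the lowest class 10 transcripts held 50.2% ± 2.18 of the TCP-seq counts, and in the class of 2 or more 10 transcripts held 76.0% ± 4.30. The class of 2 or more stood at 4.22 ± 0.23 by sums, against its median of 0.55, and siControl Ribo-seq gave 3.43 ± 0.02 (SD, n = 2). Without the 10 in each class, TCP-seq stood at -0.18 ± 0.13 in the lowest class and at 2.57 ± 0.11 in the highest. By sums over all its transcripts the highest class was thus no lower in TCP-seq than in Ribo-seq. Ribo-seq was not summed without the 10, and by medians TCP-seq was the lower (0.55 against 2.59). By class sums the difference from the class under -4 to the class from 1 to 2 was 0.05, and without the 10 transcripts it was 0.32. The 2106 transcripts of the lowest class made up 2.02% ± 0.02 of siControl RNA-seq, 0.0743% ± 0.0024 of siControl Ribo-seq and 2.16% ± 0.15 of WT TCP-seq counts. For the 588 transcripts of the highest class the shares were 0.351% ± 0.004, 3.78% ± 0.04 and 6.63% ± 1.06. Both sets of shares are of whole library totals. WT TCP-seq libraries held 1900382 to 3084003 counts, so single transcripts of low level were read at a few counts or none.

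Transcripts of higher RNA-seq CPM had a somewhat higher load. So that the 2 readings shared no library, transcripts were put in deciles by RNA-seq level in siControl cells and their load was read in WT cells. The RNA-seq minimum also used the WT RNA-seq libraries, by which WT load divides. The part of this in the lowest deciles was not tested. The median load was -0.72 in the lowest decile, at a median level of 0.717 CPM, and -0.13 in the highest, at 30.6 CPM. Between them it climbed from -0.60 to -0.36, with the sixth and the seventh decile at -0.46 and -0.46. With the first WT Ribo-seq library alone the end groups were at -0.81 and -0.16, and with the second at -0.68 and -0.13. Within each group the quartiles were over 1.2 apart on the log2 scale, and the rank correlation across transcripts was only 0.12. Transcripts at least 4-fold lower made up 19.1% of the lowest decile and 8.04% of the highest, whereas the share at least 2-fold higher was 4.12% and 4.07% at the ends and 2.43% in the seventh decile.

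**Figure D5:**
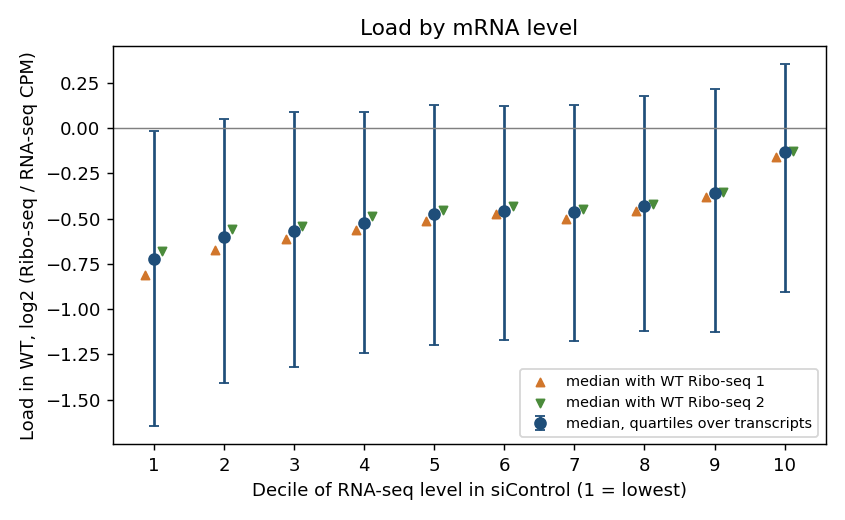
Load in WT cells (vertical axis, log2) by decile of RNA-seq level in siControl cells (horizontal axis, 1 is the lowest), as the median with quartiles over transcripts, and as the median with each WT Ribo-seq library alone. The medians climb from -0.72 to -0.13 while the quartile bars of neighbouring groups overlap almost entirely.

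Transcripts that share all their footprints can still differ in load through their RNA-seq counts, and the reverse. Among the 65495 transcripts with 200 or more Ribo-seq counts over the 4 libraries, 8000 fell into 3481 sets with the same counts in each Ribo-seq library. Within these sets the loads differed by a median of 0.004 and a 95th percentile of 0.44, and 34 sets spanned 2-fold or more, up to 2.36. The 2837 sets with the same RNA-seq counts, found among all transcripts kept, had a largest range of 8.46, and 19 of them spanned 2-fold or more. Loads of transcripts within such a set are not independent of each other.

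A small share of transcripts was called different in load between WT and siControl cells. By the interaction of assay and cell kind in edgeR's quasi-likelihood test, load was higher in siControl cells for 816 transcripts (0.805%) and lower for 921 (0.909%) at an adjusted p under 0.05, and 17209 had an unadjusted p under 0.05. The split depended on scaling, with 637 higher and 1152 lower with TMM factors and 269 higher and 854 lower with DESeq2. Of the called transcripts, 281 and 256 differed 2-fold or more. Ribo-seq moved more than RNA-seq in 76.6% of the higher and 67.6% of the lower transcripts, against 57.3% of those not called. These changes are the ones that selected the called transcripts. Ribo-seq replicates also differed more, by a median log2 difference of 0.22 in WT and 0.21 in siControl, against 0.09 and 0.10 in RNA-seq. The median changes of the higher transcripts were 0.67 in Ribo-seq and -0.16 in RNA-seq, and those of the lower ones -0.49 and 0.21. These counts rested on single libraries. Without the first WT Ribo-seq library they were 4610 and 3907, without the second WT RNA-seq library 135 and 268, and without the first 208 and 390. Without the second siControl Ribo-seq library they were 325 and 399, and without the first or second siControl RNA-seq library 200 and 333 or 151 and 393. Without the first siControl Ribo-seq library they were 1150 and 1023, so that, as without the first WT Ribo-seq library, more transcripts were higher than lower.

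The same transcripts were compared between siDENR and MCTS1 KO cells, whose libraries did not enter that test. Of the 816 higher transcripts, 94.7% were higher in siDENR than in MCTS1 KO cells, where 52.9% of all transcripts were, and their median difference was 0.46. Of the 921 lower transcripts, 94.0% were lower, against 47.1% of all, with a median of -0.43. WT and siControl cells differ by siRNA treatment and may differ by culture and day, which cannot be told apart here, and siDENR and MCTS1 KO cells also differ by the protein lost.

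The largest shift towards siControl cells was that of ENST00000610761.1. Its Ribo-seq level was 1.09 and 1.20 CPM in WT and 14.4 and 8.99 CPM in siControl cells. In RNA-seq it stood at 6.01 and 5.57 CPM and at 6.21 and 6.17 CPM. Ribo-seq values thus lay far apart between the cells, while RNA-seq values hardly differed. The difference in log2 load was 3.22 ± 0.25 (SE), with an adjusted p of 2.8e-08 in edgeR's quasi-likelihood test. ENST00000250894.8, at 3.21 ± 0.25, had 811 Ribo-seq counts over the 4 libraries against 810, so the pair is close to 1 reading of shared reads. In the other states the Ribo-seq level of ENST00000610761.1 was 0.191 and 0.209 CPM in MCTS1 KO #1, 1.13 ± 0.12 CPM in MCTS1 KO #2, 17.2 ± 4.99 CPM in siDENR #1 and 10.3 ± 0.04 CPM in siDENR #2 (SD, n = 2 each). It was low in every WT and MCTS1 KO library and high in every siRNA library, with no overlap.

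The 2 largest shifts towards WT cells had few footprints. ENST00000599627.1 had 41 Ribo-seq counts over the WT libraries and 2 over the siControl libraries, a ratio of siControl to WT Ribo-seq CPM of 0.0620 (95% exact interval 0.00726 to 0.239). Such intervals cover counting error only, and the variance between replicates of WT and siControl Ribo-seq was 5.13 and 2.67 times that of counting noise. Its fitted difference in log2 load was -3.36 ± 0.74 (SE), with an adjusted p of 0.013 in edgeR's quasi-likelihood test. It was -7.53 without the first siControl Ribo-seq library and -2.32 without the second. ENST00000601937.5 had 52 and 6 Ribo-seq counts, a ratio of 0.147 (0.0515 to 0.341), and a fitted difference of -2.12 ± 0.51 with an adjusted p of 0.025 in the same edgeR test. In RNA-seq they stood at 7.06 ± 0.10 and 12.3 ± 0.06 CPM in WT and at 4.76 ± 0.02 and 7.98 ± 0.14 CPM in siControl cells (SD, n = 2). In WT TCP-seq both lay above these levels, at 19.5 ± 1.80 and 21.7 ± 2.80 CPM (SD, n = 4). With DESeq2 neither passed an adjusted p of 0.05. Their Ribo-seq levels in the other states overlapped. In siDENR #2 they were 0.690 and 0.122 CPM for ENST00000599627.1 and 0.871 and 0.244 CPM for ENST00000601937.5, so that the first siDENR #2 library lay above both WT libraries for each.

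RNA-seq counts cover whole transcripts, whereas footprints arise mainly in coding sequence. Neither transcript length nor coding length was used here, and their part in these loads was not tested. CPM levels are not per length and do not rank transcripts by abundance.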

How the data were processed

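The authors deposited raw counts, 1 whole number per transcript and library. All 42 sample columns were matched to the labels by name. Cutadapt, STAR, featureCounts and Subread were used with the builds GRCh38.p13 and hg38, per the submitters' processing notes, which give no versions. The rule for reads on overlapping transcripts, and the use of strand, are not given in the sources.

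Load was tested in edgeR 4.0.16 by its quasi-likelihood F test (R 4.3.3, robust fit, plain library totals, cell kind as a covariate) over 101352 transcripts with Benjamini-Hochberg adjustment. The difference between WT and siControl load was the interaction of assay and cell kind. Standard errors were taken as the absolute log2 value divided by the square root of F. Load in single states is log2 of the ratio of mean CPM, with 0.02 CPM added to each. For the class medians of TCP-seq and siControl Ribo-seq over transcripts of 5 CPM or more, 0.2 CPM was added to each. Tried on simulated counts, the load test recovered 99% of 4-fold differences and called 2 unchanged transcripts. The interaction test recovered 76% of 2-fold and 100% of 4-fold differences, drawn among transcripts of 200 or more Ribo-seq counts, and called 14 unchanged ones. Simulated counts were drawn independently, and for the load test unchanged transcripts had equal CPM in both assays. In the data transcripts share reads, and 78.1% passed an adjusted p under 0.05 in edgeR's load test without the fold condition. These rates need not hold there.

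Named transcripts are the 2 highest and 2 lowest among those called, with at least 5 CPM in RNA-seq, in each comparison. The plan had assumed gene names, so its gene lists, isoforms, protein lengths, promoters and cell markers were left out. The members and lists were chosen with earlier results of these data known. The load classes, deciles, quintiles, TCP-seq reading, shared sets of counts and the siDENR to MCTS1 KO comparison were not in the plan and were added after the data had been seen. TCP-seq was first summed by class. The median per transcript, and the pair of classes compared, replaced the sums after 10 transcripts were seen to hold much of the lowest class.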

Additional observations from a re-analysis of the deposited data

Results flagged for a closer look

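Of the transcripts named above, 4 differed in load between WT and siControl cells by the interaction of assay and cell kind in edgeR's quasi-likelihood test. ENST00000610761.1 (3.22) and ENST00000250894.8 (3.21) were higher in siControl cells, in 2 of 2 libraries above both WT libraries in Ribo-seq, and share nearly all reads. ENST00000599627.1 (-3.36) and ENST00000601937.5 (-2.12) were lower in siControl cells, on 43 and 58 Ribo-seq counts over the 4 libraries. The first pair passed the threshold in all 12 alternative fits. ENST00000599627.1 lost it in 3 of 12 and ENST00000601937.5 in 8 of 12, with adjusted p from 0.0039 to 0.15 and from 0.0063 to 0.17 when a library was left out.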

How the results depend on the processing

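Neither the median load nor the difference of any named transcript changed sign under the alternatives run. Signs of the other transcripts were not followed, and TMM and DESeq2 factors shift all loads together, so that loads near 0 can cross it. Beyond that, 2 orders turned. Class sums put TCP-seq in the class under -4 above that from -2 to -1, and without the first WT or the first siControl Ribo-seq library more transcripts were higher than lower in siControl cells. The number of transcripts called higher in load was 10571 with TMM factors, 11472 with DESeq2, 2103 with a minimum mean RNA-seq count of 200, 22174 with no minimum, 11243 at 1.5-fold and 617 at 4-fold. The number called lower was 21377 with TMM factors, 20842 with DESeq2, 17772 with the minimum of 200 and 11610 at 4-fold. It rose to 42361 with a minimum of 10, 44796 with none and 45562 at 1.5-fold. The median load was -0.065 with TMM factors, -0.035 with DESeq2, -0.51 with a minimum of 10, -0.37 with 200, -0.17 with none and -0.36 when a mean Ribo-seq count of 10 was also asked for. Leaving out each library in turn gave 3531 to 4048 higher calls, 30804 to 32134 lower calls and a median of -0.46 to -0.44.

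For the difference between siControl and WT load, there were 269 higher and 854 lower calls with DESeq2 and 637 and 1152 with TMM factors. Replicates of the 2 assays that share a number did not deviate together across transcripts (r of -0.05 in WT and -0.02 in siControl). That cannot show whether they came from the same culture, which the labels do not say. With the replicate number as a block there were 330 higher and 582 lower calls in this comparison, and 3636 and 31570 for load. Leaving out each library in turn gave 135 to 4610 higher and 268 to 3907 lower calls. The cause was not tested.

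The rho of WT and siControl load was 0.89 with a minimum of 10 and 0.95 with 200, and 0.91 to 0.93 without 1 library. The share of 2-fold higher transcripts that recurred in siControl was 81.4% with 200 and 74.1% to 79.6% without 1 library. That of 4-fold lower ones was 76.4% with 10, 84.6% with 200, 80.0% with 0.1 CPM added (chosen after seeing the data) and 72.5% to 82.3% without 1 library. The difference between the end deciles of RNA-seq level, 0.59 as reported, was 0.69 with 10, 0.45 with 200, 0.50 with 0.1 CPM added and 0.55 to 0.65 without 1 library. For TCP-seq, the 0.69 became 0.054 by class sums and 0.32 by class sums without 10 transcripts a class, both chosen after seeing the data, 0.41 with TMM factors, and 0.47 to 0.87 without 1 library. It does not change with the RNA-seq minimum, since only transcripts of 5 CPM or more enter. Gene lists, and other settings for them, were not run for want of gene names. Footprint depth limits the lowest loads, where a few counts or none decide the value.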
